A study of Mus musculus with 15 samples.

Results

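The genes of the actin cytoskeleton and of 2 transcription pathways coupled to it, SRF and YAP, were followed in mouse embryonic stem cells that lacked or were depleted of the cohesin subunits STAG1 and STAG2. The set was given as 33 gene symbols, and all 33 of them were found among the 23412 genes counted in 15 RNA-seq libraries. By role it held 6 actins, 5 transgelins and calponins, 3 tropomyosins, 3 myosin chains, 9 crosslinkers and adhesion adaptors, 1 nuclear lamina gene, SRF with 1 cofactor, and 4 YAP target genes. The symbols were chosen from the pathway and not from a threshold on these values, although earlier results of these data were known when they were chosen.

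All libraries came from the male mouse embryonic stem cell line v6.5, grown on gelatin and transfected with 50 nM siRNA for 48 hours before polyA RNA was collected. Wild-type cells received the control siRNA siGLO or an siRNA against Stag1 (siStag1), Stag1-/- cells received siGLO, and Stag2-/- cells received siGLO or siStag1, with 3 replicates in each of the 5 conditions. Each knockout was a single CRISPR-Cas9 clone, so that the genotype and the clone cannot be told apart. The supplement of the study calls the replicates of wild-type and knockout cells biological, but no label says whether they were separate cultures, and the p-values therefore measure only the spread between these libraries, which may be partly technical. The libraries held 14982560 to 19070126 counts on genes (median 17700059).

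Normalized Stag2 counts were 662, 738 and 673 in the Stag2-/- siGLO libraries and 849, 929 and 939 in the Stag2-/- siStag1 libraries, against 2324, 2329.6 and 2324 in wild-type siGLO cells. With siStag1, normalized Stag1 counts were 516, 455 and 352 in wild-type and 666, 779.6 and 628 in Stag2-/- cells, against 2283, 2133 and 2008 in wild-type siGLO cells. In the libraries labelled Stag1-/- they were 1822, 2364 and 1871, which was not below wild type beyond the spread, so the level of this transcript does not check the label. The study reports that the Stag1-/- clone used for RNA-seq carries an in-frame deletion. By its account Stag1 RNA is normal in that clone, while STAG1 protein was not detected by western blot. A normalized count is the count scaled to a common library size of 17373740, and it compares 1 gene between libraries.

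Actin exists as free monomers and as filaments, and the balance between them is read by the nucleus. Monomeric actin holds the cofactor MKL1 (also MRTF-A) outside the nucleus, and when monomers are drawn into filaments MKL1 enters it and, with SRF (serum response factor), switches on genes that carry a CArG box, many of which encode actins and actin-binding proteins. YAP and TAZ, the effectors of the Hippo pathway, respond to the same filaments and to cell spreading, and act through TEAD factors on targets such as Ctgf, Cyr61 and Ankrd1. Smooth and striated muscle depend on both pathways, whereas embryonic stem cells express mainly the cytoplasmic actins.

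The promoter sequences are shown because SRF and the TEAD factors act through short motifs in them. Promoter windows of 250 bases before to 50 bases after the transcription start, from RefSeq on GRCm38.p6, were matched for 27 of the 33 genes, and Actb, Actg2, Tagln, Csrp2, Tgfb1i1 and Ctgf had no entry. An exact CArG box, which is CC, then 6 bases that are each A or T, then GG, was found in 9 of the 27 genes (33.3%), against 1.81% of all 27025 genes in the table. The box reads as a CArG box on both strands. Its positions are shown in capitals for 6 genes with the box that rose in at least 1 of the clones, and for Vil1, which carries the box and fell.
Acta1 (chr8:123894819-123894868, minus strand): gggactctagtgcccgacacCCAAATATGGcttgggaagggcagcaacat
Actc1 (chr2:114052893-114052942, minus strand): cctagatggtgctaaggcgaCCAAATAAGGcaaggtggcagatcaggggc
Actg1 (chr11:120348556-120348605, minus strand): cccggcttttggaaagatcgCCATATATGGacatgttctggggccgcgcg
Cnn2 (chr10:79988524-79988573, plus strand): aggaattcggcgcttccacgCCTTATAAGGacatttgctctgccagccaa
Myl9 (chr2:156775283-156775332, plus strand): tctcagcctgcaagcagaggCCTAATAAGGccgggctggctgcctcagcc
Srf (chr17:46556195-46556264, minus strand): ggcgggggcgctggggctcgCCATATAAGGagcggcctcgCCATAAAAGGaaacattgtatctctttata
Vil1 (chr1:74409291-74409340, plus strand): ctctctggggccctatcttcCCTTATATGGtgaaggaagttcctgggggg
The Srf promoter held 2 boxes in this stretch and each of the others held 1. Myl6 and Vcl were the other genes with an exact box. With at most 1 mismatch a box was found in 15 of the 27 genes (55.6%), against 23.8% of all genes. Those with a box of this looser kind alone were Acta2, Tpm1, Flna, Flnc, Lmna and Mkl1. They count below as genes without an exact box. Boxes outside the windows were not searched.

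The TEAD motif GGAATG, which reads CATTCC on the opposite strand, was searched on both strands and was found in 11 of the 27 genes (40.7%), against 16.6% of all genes in the table. The motif is 6 bases long and is therefore frequent. The set was chosen in part as SRF and YAP target genes. Larger shares of either motif than over all genes may follow from that choice alone. The stretches are shown, with the motif in capitals, for the 3 YAP target genes that had a promoter entry.
Cyr61 (chr3:145650066-145650105, minus strand): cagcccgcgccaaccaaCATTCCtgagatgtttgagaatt
Ankrd1 (chr19:36119945-36120071, minus strand): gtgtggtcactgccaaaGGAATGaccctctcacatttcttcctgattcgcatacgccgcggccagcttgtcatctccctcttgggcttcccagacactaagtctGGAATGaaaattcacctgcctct
Amotl2 (chr9:102717722-102717761, plus strand): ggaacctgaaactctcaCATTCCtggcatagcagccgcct
Ankrd1 held 2 motifs and Cyr61 and Amotl2 held 1 each. Acta1 and Vcl carried both a CArG box and the TEAD motif. A match says only that these letters lie in the window, and binding was not measured here.

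Of the 33 genes, 32 passed the filter on low counts, and only the smooth muscle gamma actin Actg2 did not, with raw counts of 0 to 9 in the 15 libraries. In Stag1-/- siGLO cells 18 of the 32 genes were higher and 1 was lower than in wild-type siGLO cells at an adjusted p under 0.1 in edgeR's quasi-likelihood test. These were 59.4% of the set, against 20.0% of all 14508 genes tested, of which 10.1% were higher and 9.93% lower. Over all 32 genes the median log2 fold change was 0.58, against -0.013 over all genes tested. In Stag2-/- siGLO cells 16 were higher and 7 lower (71.9%, against 28.3% of all genes, 13.9% higher and 14.4% lower), with a median of 0.30 against 0.0070. In Stag2-/- siStag1 cells 13 were higher and 8 lower than in wild-type siGLO cells (65.6%, against 43.9% of all genes, 22.6% higher and 21.3% lower), with a median of 0.18 against 0.0055. In wild-type siStag1 cells edgeR called 0 of the 32 genes, against 0.248% of all genes tested. Nearly all called genes of the set were thus higher in the Stag1-/- clone, whereas the Stag2-/- clone held both higher and lower ones. The comparisons with wild-type siGLO share those 3 libraries. The counts by role below stand against these shares of all genes. The 9 libraries from either clone, under either siRNA, are called knockout libraries, and wild type without a treatment means wild-type siGLO.

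**Figure D1:**
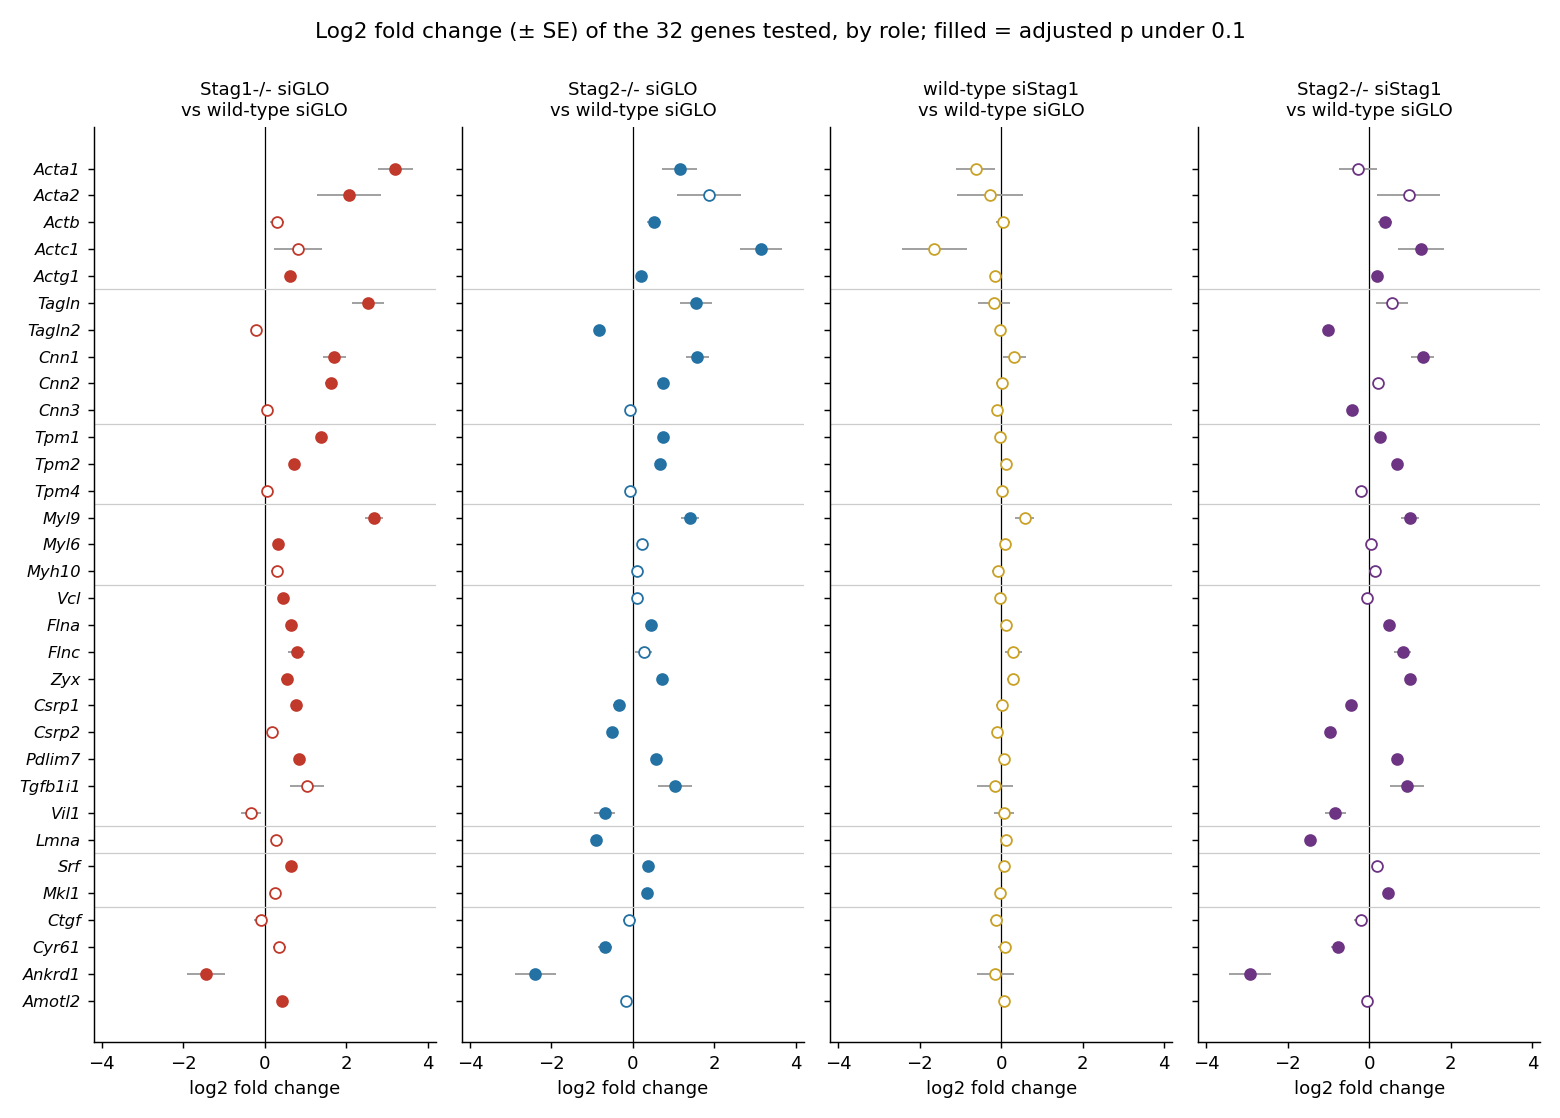
Log2 fold change against wild-type siGLO (x axis, with the standard error as a bar) of the 32 genes tested (y axis), grouped by role with grey lines, in 4 panels, one for each condition other than wild-type siGLO, with 3 libraries a condition. Filled points passed an adjusted p of 0.1 in edgeR: 19 in the first panel, 23 in the second, none in the third and 21 in the fourth.

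Of the 5 actins tested, 3 rose in Stag1-/-, 4 in Stag2-/- and 3 in Stag2-/- siStag1 cells, and none fell. The striated muscle alpha actins were very low in wild-type cells and changed most, each in a different clone. Acta1, the skeletal muscle alpha actin, had normalized counts of 31.7, 61.9 and 62.8 in wild-type siGLO, 505, 516 and 419 in Stag1-/- siGLO and 128, 136 and 82.2 in Stag2-/- siGLO cells. All 3 Stag1-/- libraries lay above every other library. The log2 fold change was 3.20 ± 0.43, adjusted p = 0.000119 in edgeR, that is 9.21-fold, in Stag1-/- cells and 1.14 ± 0.43, adjusted p = 0.0734 in Stag2-/- cells. The Stag2-/- value fell short of the threshold without any 1 of the 3 wild-type siGLO libraries and Stag2-/- siGLO replicates 1 and 2 (adjusted p = 0.107 to 0.202), and by DESeq2 its adjusted p was 0.137. Actc1, the cardiac alpha actin, had normalized counts of 2.80, 5.07 and 8.69 in wild-type siGLO, 11.8, 6.80 and 10.8 in Stag1-/- siGLO and 50.7, 61.3 and 36.9 in Stag2-/- siGLO cells. Here the Stag2-/- libraries were the high ones and the Stag1-/- libraries overlapped wild type. It changed by 3.14 ± 0.52, adjusted p = 0.000632 on the log2 scale in Stag2-/- cells (3.63 without wild-type siGLO replicate 3) and 0.82 ± 0.59, adjusted p = 0.405 in Stag1-/- cells.

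Acta2, the smooth muscle alpha actin, had normalized counts of 125, 145 and 222 in wild-type siGLO and 799, 561 and 713 in Stag1-/- siGLO cells. It was 1336, 287 and 178 in Stag2-/- siGLO and 807, 98.6 and 52.5 in Stag2-/- siStag1 cells, so that replicate 1 stood far above the other replicates in both Stag2-/- conditions. Of the fibroblast markers, the collagen gene Col3a1, named after its values were seen, had the same order of replicates, with 96.1, 21.5 and 8.43 and 84.6, 21.8 and 9.08. The others did not share it in both conditions, with Col1a1 at 333, 123 and 135 and 189.8, 129 and 197, and Col6a1 lowest in replicate 1 at 17.9, 23.7 and 35.8 and 15.7, 31.1 and 38.3. Replicate 1 of both Stag2-/- conditions also stood apart in markers of other lists, of which 3 are given here, likewise named after their values were seen. The primitive endoderm gene Gata6 was 173, 62.4 and 61.1 and 121, 49.8 and 73.7, the pluripotency gene Nanog 2535, 4903 and 4875 and 586, 2338 and 2177, and the primitive streak gene Fgf8 38, 524 and 338 and 59, 233 and 217. Gata6 was thus highest, and Nanog and Fgf8 lowest, in replicate 1. Their lists were not uniform in this. The pluripotency genes Klf4, Tbx3 and Dppa3 were lowest in replicate 1 of both Stag2-/- conditions, whereas Pou5f1 and Zfp42 were highest there. The primitive streak gene T was highest in replicate 1 with siStag1. The part of other cells in the Acta2 value was not tested. Acta2 thus stood at 2.07 ± 0.78, adjusted p = 0.09 on the log2 scale in Stag1-/- cells and 1.87 ± 0.78, adjusted p = 0.101 in Stag2-/- cells. Leaving out Stag2-/- siGLO replicate 1 took the Stag2-/- value to 0.50 (adjusted p = 0.671), while in 5 of 15 fits, those without Stag2-/- siGLO replicate 2 or 3 or without any 1 of the 3 Stag2-/- siStag1 libraries, it was called at 1.87 to 2.31 (lowest adjusted p = 0.016). The Stag1-/- call was lost in 9 of 15 fits that each left out 1 library, which were those without any 1 of the 3 wild-type siGLO libraries, the 3 Stag1-/- siGLO libraries and the 3 wild-type siStag1 libraries (adjusted p = 0.108 to 0.222), and by DESeq2 its adjusted p was 0.117. In bulk RNA, a change in the number of cells of a type and a change in RNA per cell cannot be told apart.

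The cytoplasmic actins Actb and Actg1, which build the filaments of nonmuscle cells, made up nearly all actin transcripts. Per kilobase of exon they accounted for 99.2% to 99.7% of the 6 actins in wild-type siGLO libraries, 97.5% to 97.9% in Stag1-/- siGLO and 97.5% to 99.4% in Stag2-/- siGLO libraries. Actg1 had normalized counts of 18703, 18947 and 18007 in wild-type siGLO, 28978, 28506 and 27665 in Stag1-/- siGLO, 19929.7, 22881 and 20516 in Stag2-/- siGLO and 22522, 19498 and 20973 in Stag2-/- siStag1 cells. The Stag1-/- libraries were the highest, and no library of the 3 knockout conditions overlapped wild type. Its log2 fold change was 0.61 ± 0.077, adjusted p = 6.43e-05 in Stag1-/-, 0.19 ± 0.077, adjusted p = 0.0969 in Stag2-/- and 0.18 ± 0.077, adjusted p = 0.0799 in Stag2-/- siStag1 cells. The Stag2-/- value was lost in 12 of 15 fits without 1 library, namely without any 1 of the 3 wild-type siGLO libraries, Stag1-/- siGLO replicates 1 and 2, the 3 wild-type siStag1 libraries, Stag2-/- siGLO replicates 2 and 3 and Stag2-/- siStag1 replicates 2 and 3 (adjusted p up to 0.341), and was 0.12 without Stag2-/- siGLO replicate 2. The Stag2-/- siStag1 value fell short of the threshold without any 1 of the 3 wild-type siGLO libraries, wild-type siStag1 replicate 1 and Stag2-/- siStag1 replicates 1 and 3 (adjusted p = 0.1 to 0.267). Of its 150-base transcript stretches 23.3% also lie in the pseudogenes Gm12715, Gm8399 or Gm16385, so its count depends on how such reads were assigned.

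Actb was 43826, 38161 and 29936 in wild-type siGLO, 55867, 47021 and 35192 in Stag1-/- siGLO, 54862, 60159 and 45871 in Stag2-/- siGLO and 53049, 46095 and 46244 in Stag2-/- siStag1 cells. Replicate 3 was the lowest in wild-type and in Stag1-/- cells, and these groups overlapped, whereas both Stag2-/- groups lay above wild type. The log2 fold change was 0.30 ± 0.17, adjusted p = 0.262 in Stag1-/-, 0.52 ± 0.17, adjusted p = 0.0376 in Stag2-/- and 0.38 ± 0.17, adjusted p = 0.0916 in Stag2-/- siStag1 cells. Fitted with a block for the replicate number, which paired these libraries, the Stag1-/- value was 0.30, adjusted p = 0.0206. The Stag2-/- value fell short of the threshold without any 1 of wild-type siGLO replicate 3 and Stag2-/- siGLO replicate 2 (adjusted p = 0.138 to 0.163), and the Stag2-/- siStag1 value fell short of the threshold without any 1 of wild-type siGLO replicates 2 and 3, Stag1-/- siGLO replicate 2, wild-type siStag1 replicate 2 and the 3 Stag2-/- siStag1 libraries (adjusted p = 0.108 to 0.328) and was 0.24 without wild-type siGLO replicate 3. Summed over the 6 actins, normalized counts were 48237 to 62688 in wild-type siGLO, 63999 to 86164 in Stag1-/- siGLO, 66686 to 83527 in Stag2-/- siGLO and 65744 to 76485 in Stag2-/- siStag1 libraries. The mean actin sum was 1.35-fold that of wild type in both clones, and the sum was not tested.

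**Figure D2:**
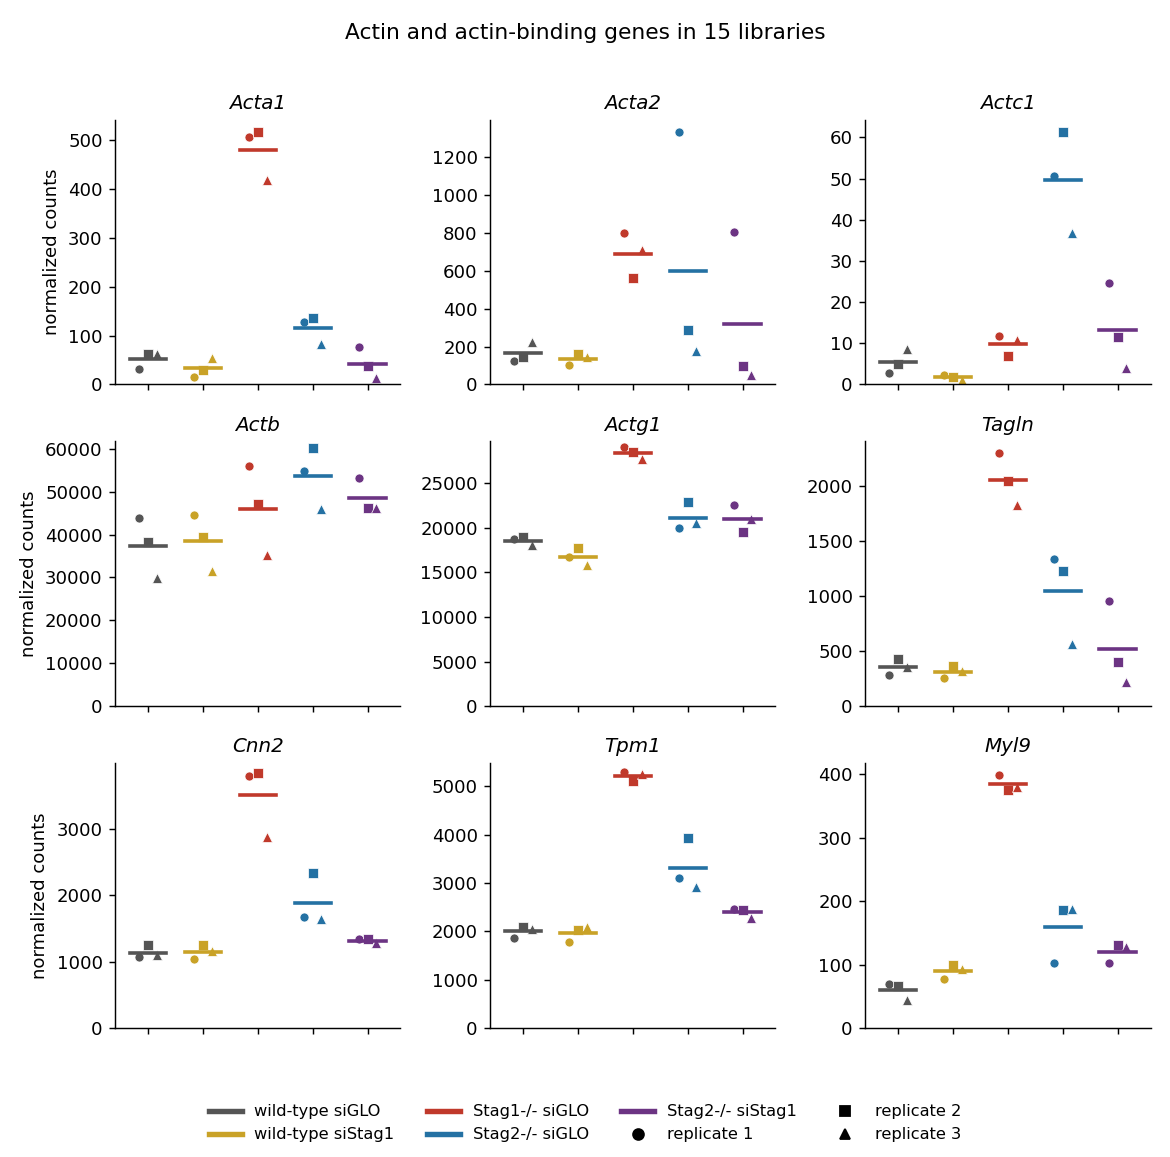
Normalized counts (y axis, linear from 0, a scale of its own in each panel) of 9 actin and actin-binding genes in 15 libraries, coloured by condition, with a marker shape for each replicate and a bar at the mean of 3. The Stag1-/- siGLO libraries were the highest for Acta1, Tagln, Cnn2, Tpm1, Myl9 and Actg1, the Stag2-/- siGLO libraries were the highest for Actc1, and Acta2 was high in replicate 1 of both Stag2-/- conditions.

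Transgelins and calponins bind along actin filaments and are SRF targets, and their smooth muscle members rose in both clones while the broadly expressed Tagln2 fell in the Stag2-/- clone. Of these 5 genes 3 rose and none fell in Stag1-/-, 3 rose and 1 fell in Stag2-/-, and 1 rose and 2 fell in Stag2-/- siStag1 cells. Tagln, the smooth muscle transgelin SM22, had normalized counts of 283, 432 and 354 in wild-type siGLO, 2297, 2045 and 1827 in Stag1-/- siGLO and 1334, 1227 and 568 in Stag2-/- siGLO cells. Neither clone overlapped wild type. Its log2 fold change was 2.53 ± 0.40, adjusted p = 0.00046 (5.78-fold) in Stag1-/- and 1.55 ± 0.39, adjusted p = 0.011 in Stag2-/- cells. In Stag2-/- siStag1 cells Tagln was 953, 399 and 216, which overlapped wild type (0.56 ± 0.39, adjusted p = 0.287, and -0.21 without its replicate 1). Without its replicate 3 it was 0.93 and was called (adjusted p = 0.0498). Of its 150-base stretches 40.2% are shared with the gene model Gm48529, which is not analysed here.

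Cnn1, the smooth muscle calponin, was 48.5, 62.9 and 39.6 in wild-type siGLO, 159, 172 and 162 in Stag1-/- siGLO, 107, 217 and 127 in Stag2-/- siGLO and 133, 152 and 89.8 in Stag2-/- siStag1 cells. All 9 knockout libraries lay above wild type. The log2 fold changes were 1.71 ± 0.28, adjusted p = 0.000607, 1.58 ± 0.28, adjusted p = 0.00102 and 1.31 ± 0.28, adjusted p = 0.00179 in that order. Cnn2, a calponin of nonmuscle cells, was 1066, 1246 and 1096 in wild-type siGLO, 3805, 3854 and 2875 in Stag1-/- siGLO, 1676, 2343 and 1644 in Stag2-/- siGLO and 1341, 1342 and 1279 in Stag2-/- siStag1 cells. It rose in Stag1-/- cells (1.63 ± 0.14, adjusted p = 1.25e-06) and in Stag2-/- cells (0.73 ± 0.14, adjusted p = 0.00148). In Stag2-/- siStag1 cells the difference was 0.22 ± 0.14, adjusted p = 0.228, although its libraries lay just above wild type.

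Tagln2 had normalized counts of 3089, 3253 and 3494 in wild-type siGLO, 2762, 2772 and 2979.7 in Stag1-/- siGLO, 2033, 1815 and 1672 in Stag2-/- siGLO and 1805, 1553 and 1487 in Stag2-/- siStag1 cells. Both Stag2-/- conditions lay below all other libraries. It fell by 0.83 ± 0.10, adjusted p = 3.94e-05 on the log2 scale in Stag2-/- and by 1.02 ± 0.10, adjusted p = 1.44e-06 in Stag2-/- siStag1 cells. Cnn3, the acidic calponin, was called only in Stag2-/- siStag1 cells among the comparisons with wild-type siGLO (-0.42 ± 0.075, adjusted p = 0.000422).

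Tropomyosins lie along the actin filament and govern its access to myosin, and 2 of the 3 rose in both clones and in Stag2-/- siStag1 cells. Tpm1 had normalized counts of 1861, 2094 and 2046 in wild-type siGLO, 5304, 5111 and 5256 in Stag1-/- siGLO, 3097, 3936 and 2913 in Stag2-/- siGLO and 2475, 2438 and 2277 in Stag2-/- siStag1 cells. The 4 groups followed each other without overlap, with Stag1-/- the highest. It rose by 1.38 ± 0.10, adjusted p = 3.86e-07 on the log2 scale in Stag1-/-, 0.73 ± 0.10, adjusted p = 0.000155 in Stag2-/- and 0.26 ± 0.10, adjusted p = 0.0572 in Stag2-/- siStag1 cells, the last of which fell short of the threshold without any 1 of wild-type siGLO replicate 1 and Stag2-/- siStag1 replicates 1 and 2 (adjusted p = 0.124 to 0.177). Tpm2 was 459, 415 and 456 in wild-type siGLO, 779.9, 686 and 723 in Stag1-/- siGLO, 649, 739 and 729 in Stag2-/- siGLO and 664, 783 and 696 in Stag2-/- siStag1 cells. The 3 knockout conditions overlapped each other and none overlapped wild type. Its log2 fold changes were 0.72 ± 0.10, adjusted p = 0.000181, 0.67 ± 0.10, adjusted p = 0.000282 and 0.69 ± 0.10, adjusted p = 7.82e-05. Tpm4 passed the threshold in none of these comparisons, with log2 fold changes from -0.21 ± 0.14 to 0.056 ± 0.14.

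Among the myosin chains, the regulatory light chain Myl9 of smooth muscle and nonmuscle myosin II rose most. Its normalized counts were 69, 67 and 44.4 in wild-type siGLO, 399.8, 376 and 379.8 in Stag1-/- siGLO, 102, 186 and 188 in Stag2-/- siGLO and 103, 131 and 127 in Stag2-/- siStag1 cells. Every knockout library was above wild type, and the Stag1-/- libraries were the highest. On the log2 scale Myl9 rose by 2.68 ± 0.22, adjusted p = 1.2e-06 (6.39-fold) in Stag1-/-, 1.40 ± 0.23, adjusted p = 0.000507 in Stag2-/- and 1.00 ± 0.23, adjusted p = 0.00277 in Stag2-/- siStag1 cells. The essential light chain Myl6 rose in Stag1-/- cells (0.34 ± 0.095, adjusted p = 0.0261), a call that fell short of the threshold without Stag1-/- siGLO replicate 3 (adjusted p = 0.102). Myh10, the heavy chain of nonmuscle myosin IIB, was not called against wild-type siGLO, with 0.29 ± 0.14, adjusted p = 0.176 in Stag1-/- cells and 0.29, adjusted p = 0.0685 under the block.

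Of the 9 crosslinkers and adhesion adaptors, 6 rose and none fell in Stag1-/-, 4 rose and 3 fell in Stag2-/-, and 5 rose and 3 fell in Stag2-/- siStag1 cells. Zyx, which encodes the focal adhesion protein zyxin, had normalized counts of 546, 528 and 510.0 in wild-type siGLO, 889.9, 699 and 710.0 in Stag1-/- siGLO, 902, 946 and 750.2 in Stag2-/- siGLO and 1264, 912 and 990.0 in Stag2-/- siStag1 cells. None of these knockout libraries overlapped wild type. It rose by 0.54 ± 0.13, adjusted p = 0.0129 on the log2 scale, 0.71 ± 0.13, adjusted p = 0.00157 and 1.00 ± 0.13, adjusted p = 3.06e-05 in that order. Pdlim7, a PDZ and LIM domain adaptor of actin bundles, was 928, 926 and 817 in wild-type siGLO, 1724, 1421 and 1618 in Stag1-/- siGLO, 1439, 1416 and 1118 in Stag2-/- siGLO and 1543, 1437 and 1271 in Stag2-/- siStag1 cells. Again no knockout library overlapped wild type, and the log2 fold changes were 0.83 ± 0.11, adjusted p = 9.49e-05, 0.57 ± 0.11, adjusted p = 0.00181 and 0.67 ± 0.11, adjusted p = 0.00019.

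Filamins crosslink filaments into networks. Flna, the widely expressed filamin A, was 13494, 13121 and 12056 in wild-type siGLO, 21865, 21564 and 16700.1 in Stag1-/- siGLO, 15587, 19443 and 17796 in Stag2-/- siGLO and 16418, 18362 and 18850.4 in Stag2-/- siStag1 cells. All 9 knockout libraries were above wild type, by 0.64 ± 0.11, adjusted p = 0.000828, 0.45 ± 0.11, adjusted p = 0.00797 and 0.47 ± 0.11, adjusted p = 0.00278 on the log2 scale. Flnc, the filamin of striated muscle, was 1229, 1163 and 1056 in wild-type siGLO, 2538, 2023 and 1378 in Stag1-/- siGLO, 1590.2, 1418 and 1139 in Stag2-/- siGLO and 2634, 1603 and 1846 in Stag2-/- siStag1 cells. Only the Stag2-/- siGLO libraries overlapped wild type. Flnc rose in Stag1-/- cells (0.78 ± 0.20, adjusted p = 0.0174), which fell short of the threshold without Stag1-/- siGLO replicate 1 (adjusted p = 0.109), and in Stag2-/- siStag1 cells (0.82 ± 0.20, adjusted p = 0.00524). Vcl, which encodes the adhesion protein vinculin, rose in Stag1-/- cells alone among the comparisons with wild-type siGLO (0.44 ± 0.078, adjusted p = 0.00127), and 24.2% of its 150-base stretches are shared with the overlapping gene Ap3m1.

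Csrp1 and Csrp2 encode LIM proteins that bind the crosslinker alpha-actinin. Csrp1 had normalized counts of 1052, 1227 and 1058 in wild-type siGLO, 2181, 1928 and 1613 in Stag1-/- siGLO, 941, 990.4 and 704 in Stag2-/- siGLO and 965, 742 and 747 in Stag2-/- siStag1 cells. It was above wild type in the Stag1-/- clone and below wild type in both Stag2-/- conditions. The log2 fold changes were 0.78 ± 0.14, adjusted p = 0.00135, -0.34 ± 0.14, adjusted p = 0.0996 and -0.44 ± 0.14, adjusted p = 0.0222. The Stag2-/- siGLO call was lost in 10 of 15 fits without 1 library, namely without any 1 of the 3 wild-type siGLO libraries, Stag1-/- siGLO replicate 2, the 3 wild-type siStag1 libraries, Stag2-/- siGLO replicate 3 and Stag2-/- siStag1 replicates 2 and 3 (adjusted p = 0.104 to 0.338), was -0.20 without Stag2-/- siGLO replicate 3, and by DESeq2 its adjusted p was 0.104. Csrp2 was 2364, 2582 and 2503 in wild-type siGLO, 2747, 2641 and 2972 in Stag1-/- siGLO, 1602, 1694 and 1937 in Stag2-/- siGLO and 1085, 1435 and 1319 in Stag2-/- siStag1 cells. It fell in Stag2-/- cells (-0.51 ± 0.10, adjusted p = 0.0029) and in Stag2-/- siStag1 cells (-0.96 ± 0.10, adjusted p = 4.49e-06).

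Tgfb1i1 and Vil1 were low throughout. Tgfb1i1, which encodes the adhesion adaptor HIC-5, was 28, 44.6 and 37.7 in wild-type siGLO, 103, 61.2 and 62.2 in Stag1-/- siGLO, 95, 77.4 and 53.7 in Stag2-/- siGLO and 63.9, 66.4 and 79.7 in Stag2-/- siStag1 cells. All 9 knockout libraries lay above wild type, with log2 fold changes of 1.04 ± 0.41, adjusted p = 0.11, 1.04 ± 0.42, adjusted p = 0.0891 and 0.93 ± 0.42, adjusted p = 0.0928. With the replicate block the Stag1-/- value was 1.05, adjusted p = 0.0641. The Stag2-/- siGLO call was lost without any 1 of the 3 wild-type siGLO libraries, Stag1-/- siGLO replicates 2 and 3, wild-type siStag1 replicate 3, Stag2-/- siGLO replicates 1 and 2 and Stag2-/- siStag1 replicate 2 (adjusted p = 0.102 to 0.215), and the Stag2-/- siStag1 call without any 1 of the 3 wild-type siGLO libraries, Stag1-/- siGLO replicates 2 and 3, wild-type siStag1 replicate 3, Stag2-/- siGLO replicate 2 and the 3 Stag2-/- siStag1 libraries (adjusted p = 0.102 to 0.232). Vil1, which encodes the epithelial microvillus protein villin, was 42, 47.7 and 66.6 in wild-type siGLO, 36.3, 42.7 and 45.1 in Stag1-/- siGLO, 35.9, 26.9 and 33.7 in Stag2-/- siGLO and 30.5, 24.9 and 32.3 in Stag2-/- siStag1 cells. Both Stag2-/- conditions were below wild type, with log2 fold changes of -0.69 ± 0.26, adjusted p = 0.0663 and -0.83 ± 0.26, adjusted p = 0.0188. The former fell short of the threshold without any 1 of wild-type siGLO replicates 2 and 3 and Stag2-/- siGLO replicates 2 and 3 (adjusted p = 0.109 to 0.273), and the latter fell short of the threshold without wild-type siGLO replicate 3 (adjusted p = 0.104).

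Lmna encodes lamins A and C, the nuclear lamina proteins whose level follows tissue stiffness. Its normalized counts were 1631, 1764 and 1527 in wild-type siGLO, 2353, 1873 and 1720.3 in Stag1-/- siGLO, 993, 809 and 823 in Stag2-/- siGLO and 659, 541 and 585 in Stag2-/- siStag1 cells. Stag2-/- siGLO libraries were below wild type, and Stag2-/- siStag1 libraries were below both. On the log2 scale Lmna stood at -0.91 ± 0.12, adjusted p = 7.8e-05 in Stag2-/- and -1.46 ± 0.12, adjusted p = 2.23e-07 in Stag2-/- siStag1 cells. In Stag1-/- cells it was 0.27 ± 0.12, adjusted p = 0.133, and 0.26, adjusted p = 0.0461 with the replicate block.

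Srf itself had normalized counts of 1401, 1447 and 1186 in wild-type siGLO, 2474, 2067 and 1766 in Stag1-/- siGLO, 1719, 1864 and 1618 in Stag2-/- siGLO and 1705, 1416 and 1462 in Stag2-/- siStag1 cells. Both clones with siGLO lay above wild type, and the Stag2-/- siStag1 libraries overlapped it. The log2 fold change was 0.64 ± 0.12, adjusted p = 0.00168 in Stag1-/- and 0.37 ± 0.12, adjusted p = 0.0394 in Stag2-/- cells, of which the latter fell short of the threshold without any 1 of wild-type siGLO replicate 3 and Stag2-/- siGLO replicate 2 (adjusted p = 0.137 to 0.162). Mkl1 was 446, 497 and 524 in wild-type siGLO, 594, 576 and 564 in Stag1-/- siGLO, 646, 557 and 646 in Stag2-/- siGLO and 757, 610.4 and 659 in Stag2-/- siStag1 cells. Its knockout libraries were all above wild type, and it rose in Stag2-/- cells (0.33 ± 0.11, adjusted p = 0.0438) and in Stag2-/- siStag1 cells (0.47 ± 0.11, adjusted p = 0.0037). The Stag2-/- siGLO value fell short of the threshold without any 1 of wild-type siGLO replicates 1 and 2 and Stag2-/- siGLO replicates 1 and 3 (adjusted p = 0.104 to 0.136). In Stag1-/- cells it was 0.24 ± 0.11, adjusted p = 0.168, and 0.24, adjusted p = 0.0988 with the block. The transcript level of a cofactor does not measure whether its protein is in the nucleus.

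Of the 4 YAP target genes 1 rose and 1 fell in Stag1-/- cells, and 2 fell and none rose in Stag2-/- and in Stag2-/- siStag1 cells. Of all genes tested, 20.0%, 28.3% and 43.9% were called in these 3 conditions, in that order. Ankrd1, a muscle ankyrin repeat protein and a YAP target, had normalized counts of 146, 169 and 145 in wild-type siGLO, 49.1, 64.1 and 56.8 in Stag1-/- siGLO, 63.4, 14 and 9.48 in Stag2-/- siGLO and 39.3, 11.4 and 9.08 in Stag2-/- siStag1 cells. All 9 knockout libraries were below wild type, and replicate 1 was the highest of both Stag2-/- conditions. Its values on the log2 scale were -1.44 ± 0.47, adjusted p = 0.0509 in Stag1-/-, -2.40 ± 0.50, adjusted p = 0.00349 in Stag2-/- and -2.93 ± 0.52, adjusted p = 0.000428 in Stag2-/- siStag1 cells. The Stag1-/- value fell short of the threshold without any 1 of wild-type siGLO replicate 2 and Stag1-/- siGLO replicates 1 and 3 (adjusted p = 0.109 to 0.161). The Stag2-/- siGLO value was -3.70 without its replicate 1, and the Stag2-/- siStag1 value was -3.89 without its own.

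Cyr61, which encodes the matricellular protein CCN1, was 885, 995 and 715 in wild-type siGLO, 1274, 1039 and 1020.3 in Stag1-/- siGLO, 606, 574 and 427 in Stag2-/- siGLO and 614, 470.2 and 428 in Stag2-/- siStag1 cells. The Stag1-/- libraries were above wild type and both Stag2-/- conditions were below it. Its fold change, on the log2 scale, was -0.69 ± 0.17, adjusted p = 0.00844 in Stag2-/- and -0.78 ± 0.17, adjusted p = 0.0018 in Stag2-/- siStag1 cells. In Stag1-/- cells it was 0.36 ± 0.16, adjusted p = 0.159, and 0.37, adjusted p = 0.0129 with the replicate block. Ctgf, which encodes the related protein CCN2, passed the threshold in none of the comparisons, with log2 fold changes against wild-type siGLO of -0.099 ± 0.16 in Stag1-/- (95% interval -0.45 to 0.25) and -0.087 ± 0.17 in Stag2-/- cells (95% interval -0.44 to 0.26). Amotl2, a scaffold that binds YAP and is also its target, rose in Stag1-/- cells (0.42 ± 0.12, adjusted p = 0.0276), which fell short of the threshold without any 1 of wild-type siGLO replicate 3 and Stag1-/- siGLO replicate 1 (adjusted p = 0.104 to 0.108).

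**Figure D3:**
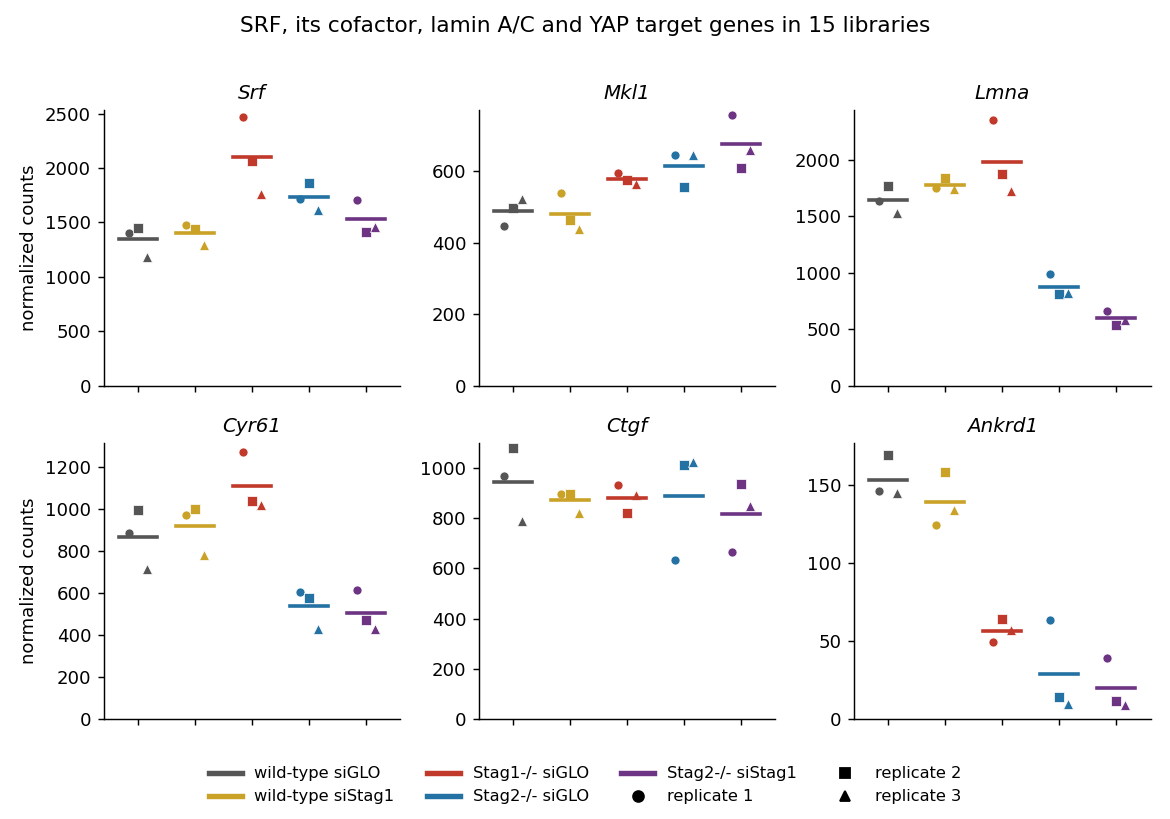
Normalized counts (y axis, linear from 0, a scale of its own in each panel) of Srf, its cofactor Mkl1, Lmna and 3 YAP target genes in 15 libraries, coloured by condition, with a marker shape for each replicate and a bar at the mean of 3. Lmna and Cyr61 were low in both Stag2-/- conditions, Ankrd1 was below wild type in all 9 knockout libraries, and Ctgf overlapped between all conditions.

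After depletion of STAG1 for 48 hours in wild-type cells edgeR called 0 of the 32 genes, and few genes at all were called in this comparison (0.248%). Of the 32 genes 2 had an unadjusted p under 0.05 and DESeq2 also called 0. The median log2 fold change was 0.017, against -0.0017 over all genes tested. For the 7 genes with the highest log2 fold changes in the Stag1-/- clone, the 95% interval after siStag1 in wild-type cells was -1.64 to 0.39 for Acta1, 0.094 to 1.07 for Myl9, -1.01 to 0.68 for Tagln, -1.98 to 1.45 for Acta2, -0.29 to 0.94 for Cnn1, -0.27 to 0.31 for Cnn2 and -0.24 to 0.19 for Tpm1. Myl9 was 77.9, 99.1 and 92.7 in wild-type siStag1 cells, above each wild-type siGLO library (0.58 ± 0.23, adjusted p = 0.639). In the direct comparison of Stag1-/- siGLO with wild-type siStag1 cells 18 of the 32 genes were higher and 1 lower (59.4%, against 16.0% of all genes tested, 8.22% higher and 7.82% lower), with a median log2 difference of 0.48 against -0.0078. Tpm1 differed by 1.41 ± 0.10, adjusted p = 4.12e-07, Cnn2 by 1.61 ± 0.14, adjusted p = 1.57e-06, Myl9 by 2.09 ± 0.22, adjusted p = 1.25e-05 and Acta1 by 3.83 ± 0.45, adjusted p = 4.5e-05. These 2 groups differ in the clone and the siRNA as well as in the duration, extent and means of STAG1 loss. These factors cannot be told apart here.

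In Stag2-/- cells 7 of the 32 genes were lower and none was higher with siStag1 than with siGLO (21.9%, against 6.37% of all genes tested, 2.98% higher and 3.39% lower). Among them were genes that had been higher in the Stag2-/- clone than in wild type. Both comparisons use the same 3 Stag2-/- siGLO libraries, so that a deviation of these libraries alone would give opposite signs in them. Tpm1 went from 3097, 3936 and 2913 with siGLO to 2475, 2438 and 2277 with siStag1, and Cnn2 from 1676, 2343 and 1644 to 1341, 1342 and 1279. Neither gene overlapped between the treatments, and the log2 fold change of siStag1 over siGLO was -0.47 ± 0.10, adjusted p = 0.0164 for Tpm1 and -0.52 ± 0.14, adjusted p = 0.0442 for Cnn2. Actc1 went from 50.7, 61.3 and 36.9 to 24.6, 11.4 and 4.04, a change of -1.88 ± 0.47, adjusted p = 0.0339. Against wild-type siGLO cells Actc1 was still 1.26 ± 0.57, adjusted p = 0.0965 with siStag1, and that value was 0.47 without Stag2-/- siStag1 replicate 1, lost its call in 13 of 15 fits without 1 library, namely without any 1 of wild-type siGLO replicates 1 and 2, the 3 Stag1-/- siGLO libraries, the 3 wild-type siStag1 libraries, the 3 Stag2-/- siGLO libraries and Stag2-/- siStag1 replicates 1 and 2 (adjusted p = 0.102 to 0.572), and had an adjusted p of 0.116 by DESeq2. Acta1 went from 128, 136 and 82.2 to 75.7, 38.4 and 13.1, a change of -1.43 ± 0.44, adjusted p = 0.0887 (-2.16 without Stag2-/- siStag1 replicate 1), and by DESeq2 its adjusted p was 0.119.

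The other 3 genes were at or below wild type in the Stag2-/- clone and were lowered further. Lmna changed by -0.56 ± 0.12, adjusted p = 0.0156, Csrp2 by -0.45 ± 0.10, adjusted p = 0.024 and Cnn3 by -0.34 ± 0.075, adjusted p = 0.0167 on the log2 scale. In a fit with the replicate block, which paired these libraries, Tagln was also lower (-1.03, adjusted p = 0.0501), while Flnc (0.55, adjusted p = 0.0072) and Zyx (0.28, adjusted p = 0.0963) were higher. When edgeR was fitted to these 6 libraries alone, 0 of the 32 genes were called, against 1.61% of all genes in that fit, 9 had an unadjusted p under 0.05, and the 7 genes had adjusted p of 0.107 to 0.31. Leaving out 1 library gave 4 to 9 called genes, with 4 without Stag2-/- siGLO replicate 2 or without Stag2-/- siStag1 replicate 2 or 3. Acta1 was lost without any 1 of wild-type siGLO replicates 2 and 3, the 3 Stag1-/- siGLO libraries, wild-type siStag1 replicate 2, Stag2-/- siGLO replicates 1 and 2 and Stag2-/- siStag1 replicates 2 and 3 (adjusted p = 0.102 to 0.288). Actc1 fell short of the threshold without any 1 of Stag2-/- siGLO replicate 2 and Stag2-/- siStag1 replicates 2 and 3 (adjusted p = 0.111 to 0.137). Cnn2 fell short of the threshold without any 1 of Stag2-/- siGLO replicate 2 and Stag2-/- siStag1 replicates 2 and 3 (adjusted p = 0.111 to 0.188) and was -0.33 without the first of these, and Csrp2 fell short of the threshold without Stag2-/- siGLO replicate 3 (adjusted p = 0.103).

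**Figure D4:**
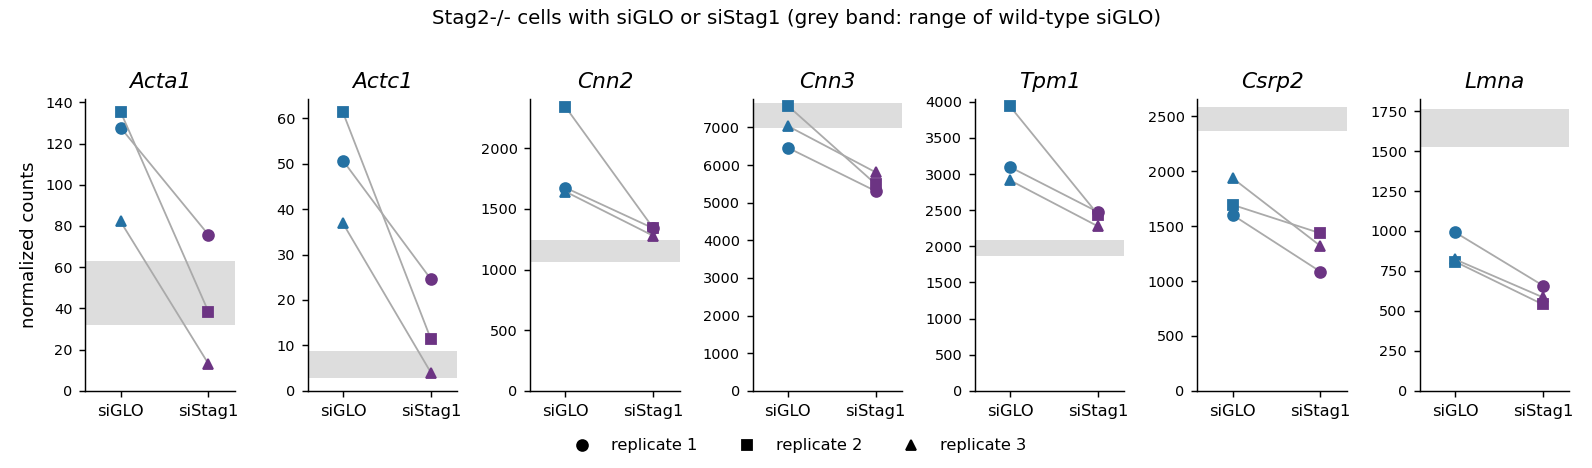
Normalized counts (y axis, linear from 0) of the 7 genes called between Stag2-/- siGLO (left of each panel) and Stag2-/- siStag1 cells (right), with lines joining libraries of the same replicate number and a grey band for the range of the 3 wild-type siGLO libraries. Every line falls, toward or past the band for Acta1, Actc1, Cnn2 and Tpm1 and away from it for Lmna, Csrp2 and Cnn3.

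Whether the effect of siStag1 differed between Stag2-/- and wild-type cells was tested as an interaction. By edgeR 0 of the 32 genes were called, against 0.159% of all genes tested, 6 of them had an unadjusted p under 0.05, and DESeq2 called 1. The gene called by DESeq2 was Lmna, with a difference of the log2 effects of -0.67 ± 0.17, adjusted p = 0.246 in edgeR and an adjusted p of 0.0441 in DESeq2. For Tpm1 the difference was -0.44 ± 0.14, adjusted p = 0.499, and for Cnn2 it was -0.54 ± 0.19, adjusted p = 0.616. With the replicate block Lmna was called as well (-0.67, adjusted p = 0.0311), and without Stag2-/- siStag1 replicate 1 it was -0.75, adjusted p = 0.0938. Myl9, at -0.98 ± 0.32, adjusted p = 0.486, was -1.22, adjusted p = 0.0896 without Stag2-/- siGLO replicate 1. For the other genes of the set, a different effect of siStag1 in the 2 genotypes was not shown.

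The clones were also compared directly. In Stag1-/- siGLO against Stag2-/- siGLO cells 14 of the 32 genes were higher and 1 was lower (46.9%, against 25.7% of all genes tested, 12.7% higher and 12.9% lower), with a median log2 difference of 0.31 against -0.025. The higher genes held contractile genes that rose in both clones, with Acta1 at 2.06 ± 0.40, adjusted p = 0.00226, Myl9 at 1.28 ± 0.21, adjusted p = 0.000537, Cnn2 at 0.90 ± 0.13, adjusted p = 0.0003 and Tpm1 at 0.66 ± 0.10, adjusted p = 0.000374. They also held genes that fell in the Stag2-/- clone, with Lmna at 1.18 ± 0.12, adjusted p = 9.1e-06, Csrp1 at 1.12 ± 0.14, adjusted p = 7.08e-05, Cyr61 at 1.05 ± 0.17, adjusted p = 0.000443, Csrp2 at 0.68 ± 0.10, adjusted p = 0.000354 and Tagln2 at 0.63 ± 0.10, adjusted p = 0.000489. The one lower gene was Actc1 (-2.32 ± 0.48, adjusted p = 0.00345). Tagln differed by 0.98 ± 0.37, adjusted p = 0.0801, which fell short of the threshold without any 1 of the 3 Stag1-/- siGLO libraries and Stag2-/- siGLO replicates 2 and 3 (adjusted p = 0.103 to 0.236) and by DESeq2 had an adjusted p of 0.13. For Cnn1, Tpm2 and Zyx the 95% intervals of the difference were -0.42 to 0.68, -0.16 to 0.26 and -0.46 to 0.10, so that a difference between the clones was not shown for them. With the replicate block 19 genes were called, against 37.3% of all genes in that fit, the added ones being Actb (-0.24, adjusted p = 0.0485), Pdlim7 (0.27, adjusted p = 0.0275), Srf (0.27, adjusted p = 0.0235) and Ankrd1 (1.07, adjusted p = 0.0954).

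The fold changes were set beside the promoter motifs as a description. Of all genes tested, 10.1% were higher and 9.93% lower in Stag1-/- cells, and 13.9% and 14.4% in Stag2-/- cells. Of the 9 genes with an exact CArG box 7 rose and none fell in Stag1-/- cells, with a median log2 fold change of 0.64, and of the 18 other genes with a promoter entry 10 rose and 1 fell, with a median of 0.48. In Stag2-/- cells 6 of the 9 rose and 1 fell (median 0.37), and of the 18 other genes 7 rose and 5 fell (median 0.19). The gene with a box that fell was Vil1. Those without a call were Actc1 and Vil1 in Stag1-/- cells and Myl6 and Vcl in Stag2-/- cells. Of the 11 genes with the TEAD motif 7 rose and 1 fell in Stag1-/- cells (median 0.44), and 3 rose and 3 fell in Stag2-/- cells (median 0.10).

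**Figure D5:**
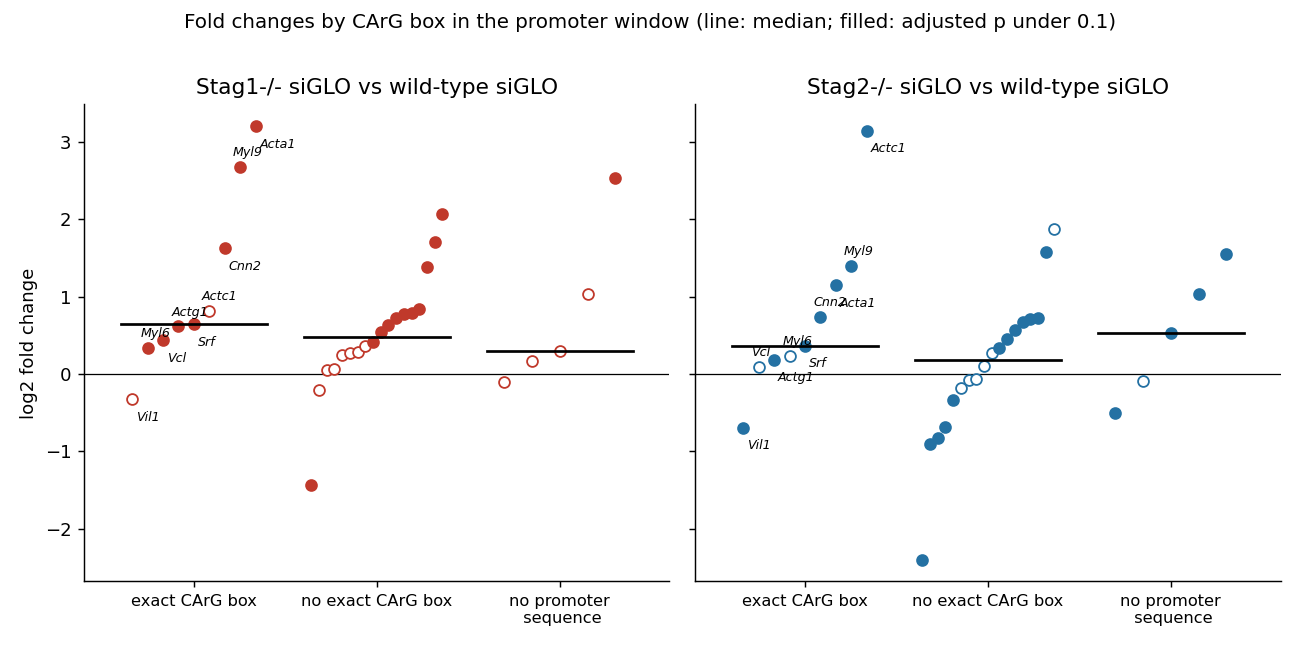
Log2 fold change against wild-type siGLO (y axis) of the 32 genes tested, in Stag1-/- siGLO (left) and Stag2-/- siGLO cells (right), split by whether the RefSeq promoter window held an exact CArG box (9 genes, named), held none (18 genes) or had no entry (5 genes), with lines at the medians. Filled points passed an adjusted p of 0.1 in edgeR, and the medians with and without the box were 0.64 and 0.48 on the left and 0.37 and 0.19 on the right.

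The other genes of these pathways were taken from 8 lists of 96 genes in all, of which 91 were tested. In Stag1-/- cells 25 of the 91 were higher and 6 lower, in Stag2-/- cells 12 and 18, in Stag2-/- siStag1 cells 19 and 22, and in wild-type siStag1 cells 0 by edgeR, with 10 at an unadjusted p under 0.05 and 2 by DESeq2. The median log2 fold changes of the 91 genes were 0.13, -0.0013, -0.018 and -0.0027 in that order. The share called, 45.1%, was thus close to that of all genes in Stag2-/- siStag1 cells (43.9%), and it was 34.1% in Stag1-/- cells, where 20.0% of all genes were called, and 33% in Stag2-/- cells, where 28.3% were. The counts of each list stand against these shares of all genes.

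Among the Hippo kinases, YAP, TAZ and the TEADs, 5 of 16 were higher and 3 lower in Stag1-/-, 2 and 3 in Stag2-/-, and 5 and 5 in Stag2-/- siStag1 cells. Tead4, a TEAD factor of early embryo cells, fell, with log2 fold changes of -0.41 ± 0.13, adjusted p = 0.0533 in Stag1-/-, -1.33 ± 0.14, adjusted p = 1.08e-05 in Stag2-/- and -2.49 ± 0.15, adjusted p = 8.11e-09 in Stag2-/- siStag1 cells. Tead1 moved the other way in Stag1-/- cells (0.56 ± 0.12, adjusted p = 0.00378). Of the 17 other YAP target genes tested, 5 were higher and 2 lower in Stag1-/-, 3 and 5 in Stag2-/-, and 4 and 3 in Stag2-/- siStag1 cells. F3, the gene of tissue factor, fell in both Stag2-/- conditions (-1.58 ± 0.15, adjusted p = 4.01e-06 with siGLO and -1.86 ± 0.15, adjusted p = 1.85e-07 with siStag1), and Fjx1 rose (0.87 ± 0.19, adjusted p = 0.00404 and 1.06 ± 0.19, adjusted p = 0.000355).

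Of the 4 SRF cofactors tested besides Mkl1, 1 was higher in Stag1-/-, 2 were lower in Stag2-/-, and 1 was higher and 2 were lower in Stag2-/- siStag1 cells. Mkl2, the second myocardin-related factor, rose in Stag2-/- siStag1 cells (0.66 ± 0.15, adjusted p = 0.00223). The ternary complex factor Elk3 was lower in Stag2-/- (-0.79 ± 0.18, adjusted p = 0.00522) and higher in Stag1-/- cells (0.73 ± 0.17, adjusted p = 0.00824). Of the 5 immediate early SRF targets tested, 1 was higher and 0 were lower in Stag1-/- cells, and 1 was higher and 1 lower in each of the Stag2-/- conditions. The higher gene was Egr1 in all 3 (in Stag2-/- siGLO cells 0.79 ± 0.21, adjusted p = 0.0149), and the lower gene was Nr4a1 (in Stag2-/- siStag1 cells -1.25 ± 0.13, adjusted p = 2.52e-06).

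Of the 25 genes of actin filament dynamics 6 were higher and 1 lower in Stag1-/-, 3 and 3 in Stag2-/-, and 4 and 5 in Stag2-/- siStag1 cells, where the profilin gene Pfn2 rose (1.11 ± 0.18, adjusted p = 0.000194) and the alpha-actinin gene Actn1 fell (-0.45 ± 0.078, adjusted p = 0.000369). Of the 10 focal adhesion genes 3 rose in Stag1-/-, 3 fell in Stag2-/- and 2 fell in Stag2-/- siStag1 cells, against 20.0%, 28.3% and 43.9% of all genes called in either direction. Among those that fell was the integrin gene Itga5 (-0.72 ± 0.088, adjusted p = 1.38e-05), whereas Parva rose in Stag1-/- cells (1.01 ± 0.20, adjusted p = 0.00268). Of the other 5 nonmuscle myosin genes the heavy chain Myh14 fell (-1.02 ± 0.16, adjusted p = 0.000106) and the light chain kinase Mylk rose (2.42 ± 0.64, adjusted p = 0.00729) in Stag2-/- siStag1 cells.

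Markers of other cells were read beside these results. The summed level of 8 embryonic stem cell markers was 56228 to 62423 normalized counts in wild-type siGLO, 44304 to 51328 in Stag1-/- siGLO, 44257 to 50364 in Stag2-/- siGLO, 49194 to 50494 in wild-type siStag1 and 27831 to 30768 in Stag2-/- siStag1 libraries. By edgeR 1 of these 8 was higher and 2 were lower in Stag1-/- cells, and 1 and 4 in Stag2-/- siGLO cells. In wild-type siStag1 cells the counts were 0 and 1, and in Stag2-/- siStag1 cells 0 and 7. The 8 primitive endoderm markers were all lower in both clones and in Stag2-/- siStag1 cells, with sums of 18732 to 19533 in wild-type siGLO, 3932 to 4939.7 in Stag1-/- siGLO, 3237 to 5394 in Stag2-/- siGLO and 2831 to 4606 in Stag2-/- siStag1 libraries. The part of either change in the levels of the actin genes was not tested. Of 10 fibroblast and feeder markers 6 were tested and 0 of them were called in Stag1-/- cells by edgeR (2 at an unadjusted p under 0.05, 1 by DESeq2), where their sum of 563 to 709 overlapped that of wild type (359 to 702), and 4 of the 10 had at most 3 counts in every wild-type siGLO library. In Stag2-/- siGLO cells 1 of the 6 was higher and 1 lower (sum 394 to 714), and in Stag2-/- siStag1 cells 2 were higher (sum 492 to 561). Of 6 smooth muscle markers outside the set 5 were tested, of which 2 were higher in Stag1-/- cells, 1 was lower in Stag2-/- siGLO cells, and 2 were higher and 1 lower in Stag2-/- siStag1 cells. Their sums were 1344 to 1622 in wild-type siGLO, 1823 to 2066 in Stag1-/- siGLO, 1090 to 1254 in Stag2-/- siGLO and 1288 to 1481 in Stag2-/- siStag1 libraries. Of 9 cardiac and skeletal muscle markers 6 were tested, and by edgeR 0 were higher in either clone with siGLO (at an unadjusted p under 0.05, 2 in Stag1-/- and 0 in Stag2-/- cells, and 0 by DESeq2), while 1 was lower in Stag1-/- cells (0 by DESeq2), and 1 was higher and 2 were lower in Stag2-/- siStag1 cells. Their sums were 407 to 803 in Stag1-/- siGLO, 846 to 1047 in Stag2-/- siGLO and 497 to 746 in Stag2-/- siStag1 against 526 to 1393 in wild-type siGLO libraries. Of 7 primitive streak and mesoderm markers 6 were tested, with 0 called in Stag1-/- cells by edgeR (1 at an unadjusted p under 0.05, 1 by DESeq2) and 3 higher and 1 lower in each of the Stag2-/- conditions. Their sum was 295 to 1200 in Stag2-/- siGLO and 281 to 438 in Stag2-/- siStag1 against 266 to 380 in wild-type siGLO libraries.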

How the data were processed

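RNA was sequenced from 15 libraries, 3 in each of 5 conditions. The authors deposited whole-number counts per gene, 1 file per library, from reads that per the labels were aligned to mm10 with STAR, and the labels also name DESeq2. The counting tool and its strand setting are not given in the sources used here. Counts were analysed as deposited, without the 4 summary lines of reads given to no gene, which held 19.8% to 23.4% of each file. Genes with low counts were removed with filterByExpr (minimum count 10, minimum total 15), which left 14508 genes, and edgeR 4.0.16 (R 4.3.3) was fitted to all 15 libraries with TMM scaling, 1 term per condition and the quasi-likelihood test, with Benjamini-Hochberg adjustment over all genes tested and a threshold of 0.1. Errors are standard errors of the log2 fold change. DESeq2 1.42.0, other scalings and filters, a replicate block, fits to the libraries compared alone and each library left out served as alternatives. Motifs and shared 150-base stretches were counted in RefSeq promoters (GRCm38.p6) and GENCODE vM21 transcripts.

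The gene symbols and lists were chosen with earlier results of these data known. Every listed gene is reported, in full where it was called against wild-type siGLO with a log2 fold change of at least 0.5, and by its call or range otherwise, except that Srf, Mkl1, Actb and Actg1 are always described. Pathway genes were named as the gene with the lowest p in each list and the lowest p in the opposite direction. Of the 8 pathway lists, 1 enters the totals but is not reported here on its own.

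The fit was tested on simulated data, where it recovered 70.0% of 200 genes changed 2-fold for Stag1-/- against wild-type cells with 13 false calls among 14128 unchanged genes in a run on 14326 genes. For wild-type siStag1 against wild-type siGLO cells it recovered 74% of 200 such genes with 23 false calls. For the difference of siStag1 effects it recovered 57.5% of 200 with 18 false calls. Same-numbered libraries of different conditions correlated above 0.1 in 24 of 30 pairs. The numbers were taken as pairing the libraries where all 3 pairs did so, which held for Stag1-/- siGLO and for wild-type siStag1, each against wild-type siGLO, for the Stag2-/- conditions against each other and for the 2 clones with siGLO.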

Additional observations from a re-analysis of the deposited data

How the results depend on the processing

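Across the 104 calls of single genes described for the set, no alternative turned a direction. Only some of the values without a call were followed through these fits, so others may turn as well. Among those followed, leaving out 1 library turned the log2 fold change against wild-type siGLO of Ctgf in Stag1-/- (-0.21 to 0.0066) and Stag2-/- cells (-0.20 to 0.11), of Tagln in Stag2-/- siStag1 cells (-0.21 to 0.93) and of Tpm4 in Stag1-/- cells (-0.0028 to 0.12). Calls lost numbered 6 by DESeq2, 1 with DESeq2 size factors in edgeR, 2 with library size alone, 5 without the expression filter, 1 of the 92 that could be tested with at least 10 counts in every library, 12 of 102 with only the libraries compared and 20 at an adjusted p under 0.05, and 171 of 1560 fits that left out 1 library lost one. The number of genes of the set called between Stag2-/- siStag1 and Stag2-/- siGLO cells was 7 with all libraries (6.37% of all genes called) and 0 with only the libraries compared (1.61%), which have fewer samples, and ranged from 4 to 9 without 1 library (2.83% to 10.1%). For the difference of siStag1 effects the number was 1 by DESeq2 (Lmna) and 0 to 1 without 1 library. Without 1 library the numbers called against wild-type siGLO ranged from 15 to 22 for Stag1-/- siGLO, 16 to 25 for Stag2-/- siGLO and 16 to 20 for Stag2-/- siStag1, while the share of all genes called in these fits ranged from 13% to 22.2%, 17.1% to 31.0% and 35.1% to 45.8%. The comparisons of Stag1-/- siGLO gave 13 to 17 against Stag2-/- siGLO (17.2% to 28.2% of all genes) and 13 to 21 against wild-type siStag1 (9.95% to 18.1%).

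In fits with a replicate block the numbers called were 25, 24 and 24 for Stag1-/- siGLO, Stag2-/- siGLO and Stag2-/- siStag1 against wild-type siGLO, 10 between the Stag2-/- conditions, 19 between the clones, 25 for Stag1-/- siGLO against wild-type siStag1 and 1 for the difference of siStag1 effects. The block also raised the share of all genes called, in the same order from 20.0%, 28.3%, 43.9%, 6.37%, 25.7%, 16.0% and 0.159% to 30.6%, 39.4%, 53.7%, 14.1%, 37.3%, 26.5% and 0.951%. It ended no call among the genes of the set.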
